A study of Rattus norvegicus with 18 samples.

Results

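The matrix metalloproteinases Mmp2, Mmp9, Mmp11, Mmp12 and Mmp14 and their tissue inhibitors Timp1, Timp2 and Timp3 were followed in the lungs of rats that had inhaled cigarette smoke. They are 8 of the 13811 genes that had a probe set with 1 gene symbol on the arrays, and they were taken by name, as every probe set annotated to 1 of these symbols alone, which gave 15 of 20359 such probe sets. Of the 15, 12 probe sets of 6 genes were bright enough to be tested. Mmp9 and Mmp11 were not.

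Male Sprague-Dawley rats were sham-exposed, or exposed nose-only to mainstream smoke of a standard reference cigarette at 300 µg or 600 µg of total particulate matter per litre, on 5 days of each week for 13 weeks, with daily sessions of 2 h. Recovery from the last session lasted 2, 6 or 20 h, giving 9 conditions of exposure and time. A condition had 1 array of each of 2 Affymetrix types, called A and B here. The labels give neither the age of the rats nor how many rats an array holds. An exposure was therefore represented by its arrays at all times (n = 3 of each type), and the spread behind each error holds both array noise and any change of the smoke effect between times. The number of arrays limits the precision, and p-values reflect no more than the spread among the arrays at hand, which may be technical.

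Matrix metalloproteinases (MMPs) are zinc-dependent enzymes that cut the proteins of the extracellular matrix, among them collagens, elastin and basement membrane. Most are secreted as inactive proenzymes, some are held in the cell membrane, and the tissue inhibitors of metalloproteinases (TIMPs) block them by binding the catalytic site. In the lung MMP12, the macrophage elastase, is made mainly by macrophages, and mice that lack it have been found protected from emphysema caused by smoke.

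Values are array signals on a linear scale, scaled by the authors to the same trimmed mean on every array. The median signal was 263.6 to 278.5 on arrays of type A, while those of type B had 315.3 to 338.7. A probe set was tested if 3 or more of its 9 arrays reached the 40th percentile of signal, which was 183.8 for type A and 238.7 for type B. Log2 changes are differences of log2(signal + 50), which gives dim probe sets smaller changes than the ratios of their signals do. Adjusted p-values come from limma with the Benjamini-Hochberg adjustment over all 19638 probe sets tested, with a threshold of 0.05. The 9 genes of a lung tissue list, surfactant and airway genes among them, were all measured, with a summed signal of 84446 to 94249 over the 9 conditions. Deviations of each probe set from its mean over the 9 arrays of a type were compared between arrays. Those of the type B sham and 300 µg/l arrays at 2 h correlated with r = 0.56. None of the remaining 35 pairs of type B arrays exceeded 0.12. Effects of exposure and time were not taken out of these deviations. Of the members only 1 Mmp14 probe set was measured on type B. The 4 smoke samples at 20 h carry a further label that says sham, while their titles and source names give the smoke exposure.

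Promoter windows of 5 of the 8 genes were found among the RefSeq sequences (assembly GRCr8), which span 250 bases before to 50 bases after the gene start. Mmp2, Mmp9 and Mmp14 were not matched. The windows of Mmp12, the 1 member whose signal passed the test, and of Timp3, the inhibitor with the next largest change, are given here 5′ to 3′ on the strand of the gene. Capitals mark a match to TGANTCA, the AP-1 site that many MMP promoters carry, or to the TATA box letters TATAAA. Mmp12 lies at chr8:12866402-12866701 on the plus strand and Timp3 at chr7:19459509-19459808 on the minus strand.
Mmp12: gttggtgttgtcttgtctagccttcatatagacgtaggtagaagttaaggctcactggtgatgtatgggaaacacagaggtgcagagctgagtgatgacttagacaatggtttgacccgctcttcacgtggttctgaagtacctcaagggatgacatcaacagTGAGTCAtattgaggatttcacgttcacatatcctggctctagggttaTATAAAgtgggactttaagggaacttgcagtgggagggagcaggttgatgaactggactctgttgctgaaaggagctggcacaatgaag
Timp3: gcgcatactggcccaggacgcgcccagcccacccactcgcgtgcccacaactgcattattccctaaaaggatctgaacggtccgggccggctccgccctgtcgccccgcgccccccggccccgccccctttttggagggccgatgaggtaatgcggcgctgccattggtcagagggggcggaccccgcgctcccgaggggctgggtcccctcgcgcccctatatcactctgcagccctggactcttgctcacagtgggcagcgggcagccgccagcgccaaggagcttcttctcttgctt
The Mmp12 window held 1 AP-1 match, TGAGTCA, starting at -87 from the gene start, and 1 TATAAA starting at -39, which do not overlap. No match to either motif stood in the windows of Mmp11, Timp1, Timp2 or Timp3, searched on both strands. Of all 33469 rat promoter windows of this length, 7.33% held the AP-1 letters and 14.2% held TATAAA. These matches describe letters only and say nothing on whether a factor was bound.

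Mmp12, the macrophage elastase, was the only member that passed the test, and it was higher at 600 µg/l than in sham lungs. Its signals at 600 µg/l were 393.3 at 2 h, 796.6 at 6 h and 607.3 at 20 h, against 191.2, 157.9 and 162.4 in sham lungs at the same times. Every array at 600 µg/l lay above every sham array, as for 6.98% of all probe sets tested. The mean was 599.1 ± 201.8 at 600 µg/l and 170.5 ± 18.1 in sham lungs (SD, n = 3 arrays each). The log2 change was 1.51 ± 0.27 (SE), a 2.85-fold difference on that scale (limma, adjusted p = 0.0449). It was 1 of 12 member probe sets called, where 0.514% of all 19638 probe sets were called (101, of which 84 rose and 17 fell). The sham arrays lay near the filter: 1 of 3 reached it, with 2 of 3 at 300 µg/l and 3 of 3 at 600 µg/l, so the probe set passed the filter mainly through its smoke arrays.

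The lower smoke concentration gave an uneven picture for Mmp12. Its signals at 300 µg/l were 401.0 at 2 h, 261.2 at 6 h and 155.7 at 20 h. At 2 h the array at 600 µg/l was about as high as that at 300 µg/l, with ratios to sham of 2.06 and 2.10. At 20 h the array at 300 µg/l lay slightly below sham, with a ratio of 0.959. At 600 µg/l the ratios to sham were 5.05 at 6 h and 3.74 at 20 h. The mean change at 300 µg/l did not pass the test (log2 change 0.48 ± 0.27 SE, n = 3 each, limma adjusted p = 0.965). The direct comparison of 600 with 300 µg/l gave a log2 difference of 1.03 ± 0.27 (SE, n = 3 each) and did not pass either (limma adjusted p = 0.801).

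The slope of Mmp12 over sham, 300 and 600 µg/l was 0.76 ± 0.14 (SE) on the log2 scale per 300 µg/l. It passed the trend test (limma adjusted p = 0.0376), as did 0.611% of all probe sets. The concentrations are evenly spaced, with equal numbers of arrays. The slope is therefore fixed by the 600 µg/l and sham arrays and is no separate result from their comparison. The 300 µg/l arrays enter only its error. Whether the smoke effect changed with recovery time was tested with both concentrations pooled. The error of that test holds no measured variation of sham arrays and counts the gap between 600 and 300 µg/l as error. The effect of smoke at 6 h minus that at 2 h was 0.41 ± 0.94 (SE) and at 20 h minus that at 2 h it was -0.10 ± 0.94 on the log2 scale, neither of which passed (limma adjusted p = 0.973 and 1). With a slope over concentration at each time instead, a model added after seeing the data, the slope of Mmp12 per 300 µg/l at 6 h minus that at 2 h was 0.57 ± 0.31 and at 20 h minus that at 2 h 0.38 ± 0.31 on the log2 scale (SE, limma adjusted p = 0.71 and 1). No member passed in this model and 0% of all probe sets did at either time, where 1453 (6 h) and 949 (20 h) had an unadjusted p under 0.05.

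The call for Mmp12 depended on single conditions. Without the 600 µg/l condition at 6 h or at 20 h its change against sham was no longer past the threshold (limma adjusted p = 0.191 and 0.201), and the same held without 1 of the sham conditions (0.138, 0.204 and 0.107 without 2, 6 or 20 h), without the 300 µg/l condition at 6 h (0.0736) and without all conditions at 20 h (0.14). Over the 21 alternatives for this comparison the log2 change ran from 1.08 to 1.93 and never changed sign.

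Macrophage marker genes were set beside Mmp12. Of 19 listed macrophage genes, 15 were on the arrays and 13 were tested. Of these 7 rose at 600 µg/l and none fell (limma, adjusted p under the threshold), where 0.514% of all probe sets tested were called. The median log2 change of the 13 was 0.742 against -0.0075 over all probe sets tested. Among the 7 were Cd68, a lysosomal glycoprotein (log2 change 1.17 ± 0.09 SE, limma adjusted p = 0.000517), and Gpnmb, a glycoprotein of lipid-laden macrophages (1.30 ± 0.11 SE, limma adjusted p = 0.000519). The other 5 were Ctsd, Ctsk, Lgals3, Lpl and Cd14. Of the 6 not called, Adgre1, an adhesion receptor of macrophages, and Csf1r, the receptor of colony-stimulating factor 1, had estimates below 0 (-0.40 and -0.11, limma adjusted p = 0.609 and 0.785), Adgre1 with a signal under sham at each time. The summed signal of the 13 genes was 25175, 26668 and 25771 in sham lungs (2, 6 and 20 h), 38379, 38356 and 35700 at 300 µg/l, and 41612, 44444 and 47033 at 600 µg/l. The bright Ctsd, Gpnmb, Lgals3 and Mrc1 add most to this sum, and all but Mrc1 are among the 7 that rose. At 20 h and 300 µg/l this sum was still above every sham value while Mmp12 was not. The 7 genes that rose were all measured on type A, and Mrc1, Trem2 and Adgre1 on type B. Itgam and Fabp4 were under the filter. Marco, Msr1, Atp6v0d2 and Siglec1 were not among the named probe sets of these arrays.

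**Figure D1:**
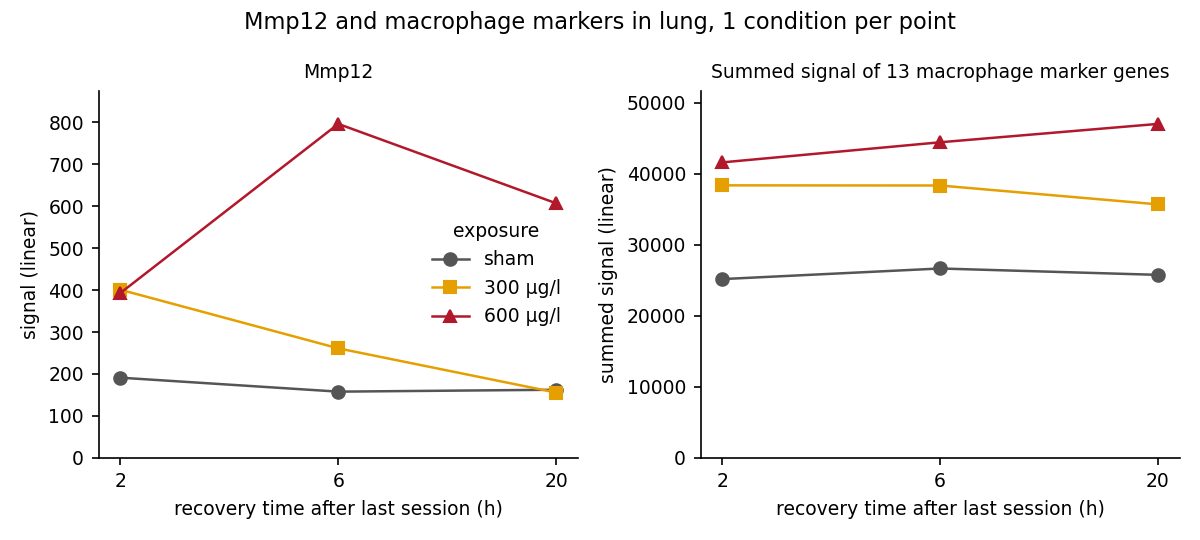
Signal of Mmp12 (probe set 1368530_at, linear scale, left) and summed signal of 13 macrophage marker genes (right) against recovery time in hours, 1 condition per point, for sham, 300 and 600 µg/l, with recovery times spaced evenly. The 600 µg/l arrays of Mmp12 (393.3 to 796.6) lie above the sham arrays (157.9 to 191.2) at every time, its 300 µg/l array is close to 600 µg/l at 2 h and to sham at 20 h, and the macrophage sum is above sham at both concentrations and every time.

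Of 10 listed neutrophil genes 5 were on the arrays and 3 were tested. Of the 3 only S100a9, a calcium-binding protein abundant in neutrophils, rose at 600 µg/l (log2 change 2.33 ± 0.22 SE, n = 3 each, limma adjusted p = 0.00155). S100a8 and Csf3r overlapped sham and were not called (0.77 ± 0.30 and 0.27 ± 0.18 SE, limma adjusted p = 0.4 and 0.665). Cxcr2 and Camp were under the filter. The summed signal of the 3, to which S100a9 adds most, was 1287 to 2209 in sham lungs, 3082 to 4110 at 300 µg/l, and 3909 to 8250 at 600 µg/l. In lung RNA fewer or more cells of a type and less or more RNA per cell cannot be told apart, and the part of either cell type in the Mmp12 signal was not tested.

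By the correlation of log2(signal + 50) over the 9 type A arrays, the genes with the pattern most like that of Mmp12 among 8409 compared were Mpeg1, the macrophage-expressed pore-forming protein perforin-2 (r = 0.968), Sting1, the adaptor of cytosolic DNA sensing (r = 0.959), and Sdf2l1, a chaperone cofactor of the endoplasmic reticulum (r = 0.95). Mpeg1 signals were 320.0, 295.4 and 304.0 in sham lungs (2, 6 and 20 h), 401.7, 359.0 and 307.5 at 300 µg/l, and 391.9, 426.5 and 436.8 at 600 µg/l. Like Mmp12, Mpeg1 was close at both concentrations at 2 h and close to sham at 300 µg/l and 20 h. The points of these correlations share exposures, arrays and scaling, and the values are descriptions.

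Mmp12 lies in a cluster of MMP genes, and its MMP neighbours with a probe set on the arrays were all dim. In the order of RefSeq genes Mmp13 stands just before Mmp12, and Mmp1b, Mmp3, Mmp1, Mmp10, Mmp8, Mmp27, Mmp20 and Mmp7 follow it. Mmp13, a collagenase, had signals of 8.7 to 63.9 over the 9 arrays, and Mmp3, stromelysin-1, of 30.7 to 67.5. Mmp8, the neutrophil collagenase, had 81.4 to 139.0, Mmp10, stromelysin-2, 7.6 to 20.7, and Mmp7, matrilysin, 6.1 to 10.2. All 5 were under the filter and were not tested, and their signals at 600 µg/l overlapped those in sham lungs.

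Mmp2, gelatinase A, a type IV collagen- and gelatin-cutting enzyme made largely by fibroblasts and other mesenchymal cells, had lower signals in all smoke-exposed lungs on its brighter probe set (1370301_at, type A). The signals were 1819.0, 1780.4 and 1563.3 in sham lungs (2, 6 and 20 h), 1277.8, 1333.7 and 1412.3 at 300 µg/l, and 1431.7, 1291.2 and 1519.2 at 600 µg/l. All 6 smoke arrays lay below all 3 sham arrays, a pattern that 1.89% of all probe sets showed downward and 1.76% upward. The difference did not pass the test at 600 µg/l (log2 change -0.27 ± 0.09 SE, n = 3 each, limma adjusted p = 0.335) or at 300 µg/l (-0.35 ± 0.09 SE, limma adjusted p = 0.576), where no member was called and 0.0458% of all probe sets were. The gap to sham was widest at 2 and 6 h and smallest at 20 h.

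The other Mmp2 probe set (1369825_at) was dim, with 171.7 to 240.5 over the 9 arrays, and its groups overlapped. Its log2 change at 600 µg/l was -0.09 ± 0.11 (SE, n = 3 each, limma adjusted p = 0.848), with a 95% interval of -0.34 to 0.16 that holds the difference seen on the brighter probe set. Of the fibroblast markers 9 were tested and none passed at 600 µg/l, with a median log2 change of -0.23 against -0.0075 over all probe sets. Their estimates were below 0 for 7 and at 0.03 for Lum and Tcf21. Their summed signal, to which the bright Col3a1, Fn1 and Col1a2 add most, was 21322 to 21852 in sham lungs, 18028 to 19569 at 300 µg/l, and 17852 to 20016 at 600 µg/l. The part of these cells in the Mmp2 signal was not tested. Of 6 smooth muscle, 7 endothelial, 2 mesothelial and 1 cartilage gene tested, none was called at 600 µg/l, nor was any of the 9 lung tissue genes. Sums below sham were not particular to the fibroblast list. The endothelial sum, to which Tek adds most, was 25111 to 26449 at 600 µg/l and 26473 to 30210 in sham lungs (median log2 change -0.155). This gap is narrow. Tek was measured on type B, and the lowest sham sum is that at 2 h, which includes the type B sham array described above. The mesothelial sum of 2 genes, to which Krt19 adds most, was 2997 to 3463 and 3585 to 3873 (median -0.174). The other gene, Msln, overlapped sham. Smooth muscle, cartilage and lung tissue sums at 600 µg/l overlapped sham.

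Mmp14, a membrane-anchored MMP that activates the Mmp2 proenzyme together with Timp2, showed no call and no separation of the groups. Its type A probe set (1367860_a_at) had 794.8, 779.0 and 956.6 in sham lungs (2, 6 and 20 h), 898.1, 853.8 and 977.7 at 300 µg/l, and 663.2, 863.4 and 916.6 at 600 µg/l. Its signal was highest at 20 h in each exposure, and the difference of 20 h from 2 h over all exposures was 0.27 ± 0.10 on the log2 scale (SE, n = 3 each), which did not pass (limma adjusted p = 0.352). No member was called for 20 h against 2 h, where 0.0509% of all probe sets were, nor for 6 h against 2 h, where 0.0153% were. The change at 600 µg/l was -0.05 ± 0.10 (SE, n = 3 each, limma adjusted p = 0.903), with a 95% interval of -0.28 to 0.17.

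The type B probe set of Mmp14 (1378225_at) had 389.9, 295.4 and 420.8 in sham lungs, 384.9, 444.3 and 437.2 at 300 µg/l, and 343.5, 335.8 and 565.0 at 600 µg/l. Its groups overlapped, the 20 h array at 600 µg/l being the highest and the 6 h sham array the lowest. The log2 change at 600 µg/l was 0.13 ± 0.17 (SE, n = 3 each, limma adjusted p = 0.854). This value rests in part on the type B sham array at 2 h whose deviations ran with those of another array, and without it the probe set was not called either.

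Mmp9, gelatinase B, a product of neutrophils and macrophages, and Mmp11, stromelysin-3, a product of stromal cells, were under the filter. The Mmp9 probe sets had signals of 42.6 to 77.8 (1369166_at) and 4.2 to 13.1 (1398275_at), and the Mmp11 probe set 107.0 to 196.5 (1367858_at), against a filter of 183.8 in at least 3 arrays. Without the filter the log2 changes at 600 µg/l were -0.13 ± 0.13 and 0.01 ± 0.08 for Mmp9 and -0.06 ± 0.12 for Mmp11 (SE, n = 3 each), with limma adjusted p = 0.838, 0.983 and 0.933. The 95% interval of the brighter Mmp9 probe set was -0.43 to 0.17 and that of Mmp11 -0.35 to 0.22.

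**Figure D2:**
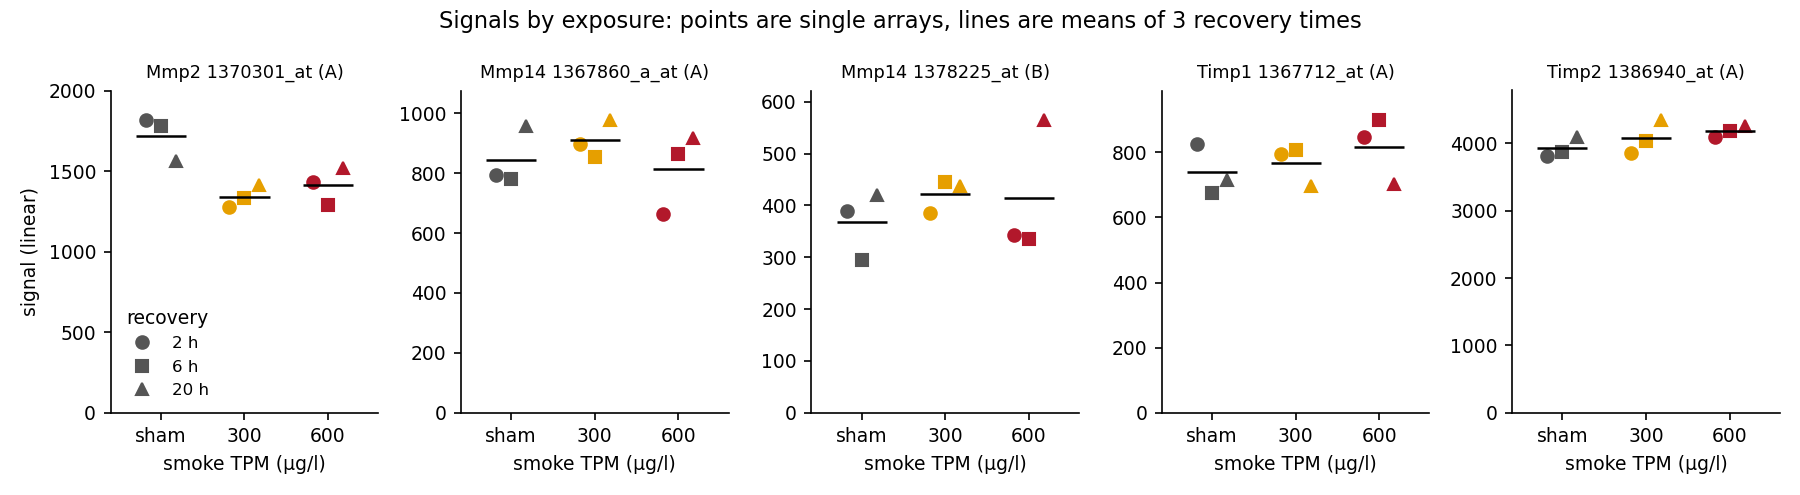
Signals (linear scale) of 5 probe sets of Mmp2, Mmp14, Timp1 and Timp2 at sham, 300 and 600 µg/l, with 1 point per array, its shape giving the recovery time, and a line at the mean of 3 arrays. For Mmp2 all smoke arrays (1277.8 to 1519.2) lie below all sham arrays (1563.3 to 1819.0), and the groups of the other 4 probe sets overlap.

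Among the inhibitors, Timp3, which is held in the matrix and also blocks ADAM proteases, had higher signals 2 h after smoke on all 4 of its probe sets. With 1 array per condition the 2 h differences have no test, and the changes over all times did not pass. On probe set 1368989_at the signals were 667.9, 701.8 and 646.9 in sham lungs (2, 6 and 20 h), 990.5, 910.9 and 628.6 at 300 µg/l, and 1141.1, 1047.4 and 657.1 at 600 µg/l. The smoke arrays were above sham at 2 and 6 h and at the level of sham at 20 h. The log2 change at 600 µg/l was 0.43 ± 0.13 (SE, n = 3 each, limma adjusted p = 0.244) and at 300 µg/l 0.28 ± 0.13 (limma adjusted p = 0.899).

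The other Timp3 probe sets showed the 2 h difference with smaller changes over all times. Probe set 1372926_at had 815.5, 853.8 and 769.7 in sham lungs, 1131.2, 864.2 and 794.5 at 300 µg/l, and 1109.3, 1000.5 and 828.3 at 600 µg/l. Probe set 1389836_a_at had 5565.4, 6137.2 and 6196.8 in sham lungs, 6877.6, 6524.7 and 6514.5 at 300 µg/l, and 8108.2, 6500.9 and 6192.9 at 600 µg/l. On both the smoke arrays stood farthest above sham at 2 h, and at 20 h those at 600 µg/l had ratios to sham of 1.08 and 0.999. Their log2 changes at 600 µg/l were 0.25 ± 0.10 and 0.21 ± 0.09 (SE, n = 3 each), with limma adjusted p = 0.437 and 0.477.

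On probe set 1375138_at the sham lungs themselves varied with time. It had 3047.6, 4334.1 and 3151.1 in sham lungs, 4500.7, 3608.2 and 4002.3 at 300 µg/l, and 4821.0, 3754.1 and 3585.3 at 600 µg/l. Both smoke arrays were above sham at 2 and 20 h and below it at 6 h. The log2 change at 600 µg/l was 0.21 ± 0.14 (SE, n = 3 each, limma adjusted p = 0.676).

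The ratio of 600 µg/l to sham at 2 h was 1.71 for 1368989_at, 1.36 for 1372926_at, 1.46 for 1389836_a_at and 1.58 for 1375138_at. At 300 µg/l it was 1.48, 1.39, 1.24 and 1.48 in the same order. These ratios compare single arrays at 1 time, have no replicate, and set both concentrations against the same sham array. That array was the lowest of the sham arrays on 1389836_a_at and 1375138_at, and the middle one on the other probe sets. The share of all probe sets with both smoke arrays above sham at 2 h was not counted. The 4 probe sets read 1 gene on the same arrays and are not independent.

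The change of the smoke effect with time was again tested with both concentrations pooled. For 1375138_at the effect at 6 h minus that at 2 h was -0.84 ± 0.15 on the log2 scale (SE, limma unadjusted p = 0.000457, adjusted p = 0.453). For 1368989_at the effect at 20 h minus that at 2 h was -0.64 ± 0.20 (SE, limma unadjusted p = 0.0104, adjusted p = 1). Neither passed, and no member was called in either comparison, where 0% (6 h) and 0.0102% (20 h) of all probe sets were. At an unadjusted p under 0.05, 1231 and 678 of 19638 probe sets would have counted, 1 and 2 of the 12 member probe sets among them.

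The genes with the pattern most like that of Timp3 probe set 1368989_at, looked up after its values were seen, were Nqo1, an NRF2-responsive quinone reductase (r = 0.967), Gsta3, a glutathione transferase (r = 0.955), and Ppm1a, a protein phosphatase (r = 0.953), over the 9 type A arrays and among 8406 probe sets. Nqo1 signals were 1233.5, 1394.3 and 1389.2 in sham lungs (2, 6 and 20 h), 4750.5, 3478.5 and 1412.8 at 300 µg/l, and 5959.3, 3557.3 and 1615.9 at 600 µg/l. Both were highest at 2 h and near sham at 20 h. The other Timp3 probe sets had other genes as their 3 most like. These were Ier3, Cytl1 and Slc38a2 for 1372926_at, and Bnip3, C10h16orf89 and Por for 1375138_at. For 1389836_a_at, the brightest, they were Agt, Acadl and Stk11ip. Nqo1 and Gsta3 were not among them, so the likeness is given for 1368989_at only.

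**Figure D3:**
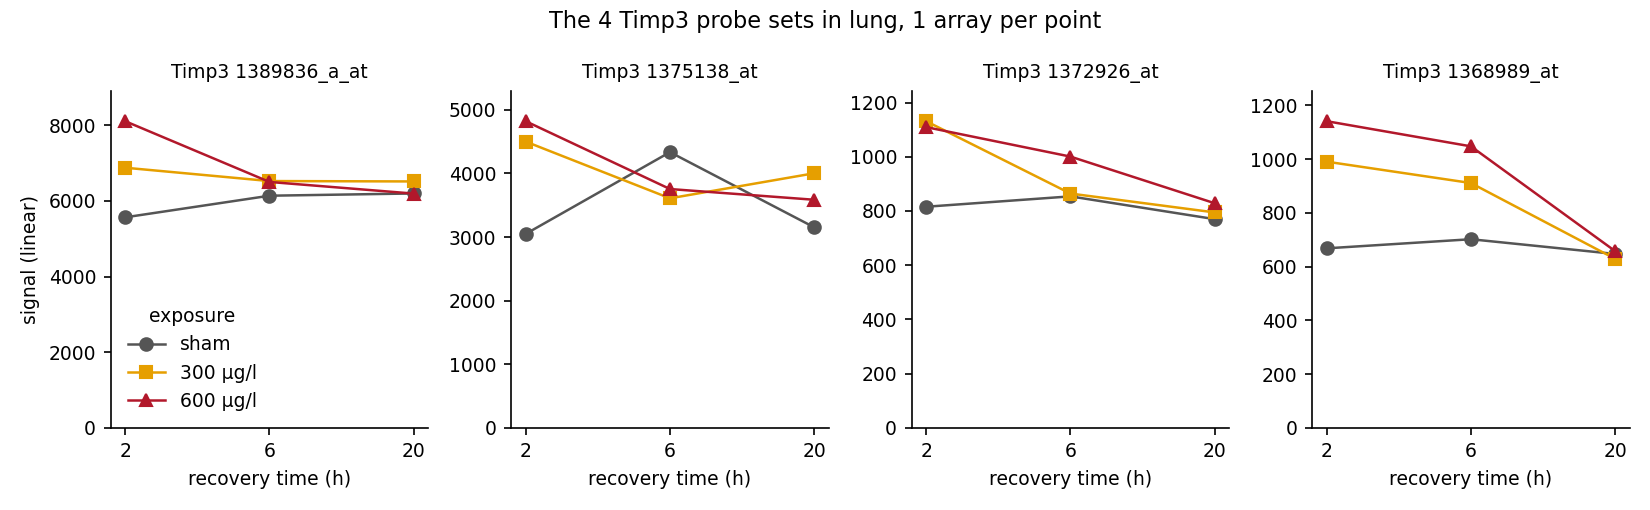
Signal (linear scale) of the 4 Timp3 probe sets against recovery time in hours, 1 array per point, for sham, 300 and 600 µg/l, with recovery times spaced evenly. At 2 h both smoke arrays lie above sham on every probe set, and at 20 h the 600 µg/l array is at 0.999 to 1.14 times sham.

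Timp1, an inhibitor that many cells secrete on inflammatory stimulation, was not called. Its signals (1367712_at) were 824.6, 676.1 and 714.9 in sham lungs (2, 6 and 20 h), 795.2, 806.9 and 696.7 at 300 µg/l, and 847.1, 900.0 and 703.8 at 600 µg/l. The groups overlapped, and in each smoke group the 20 h array was the lowest. The log2 change at 600 µg/l was 0.13 ± 0.10 (SE, n = 3 each, limma adjusted p = 0.695), with a 95% interval of -0.08 to 0.35. The genes with the pattern most like that of Timp1 were Gaa, the lysosomal acid alpha-glucosidase (r = 0.934), Rbm33, an RNA-binding protein (r = 0.931), and Cct7, a chaperonin subunit (r = 0.93), over 9 arrays and among 8409 probe sets.

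Timp2, the inhibitor that also takes part in Mmp2 activation, was not called on either probe set. The brighter one (1386940_at) had 3807.6, 3867.8 and 4100.1 in sham lungs, 3861.2, 4039.2 and 4349.1 at 300 µg/l, and 4090.9, 4188.6 and 4264.3 at 600 µg/l. Its log2 change at 600 µg/l was 0.09 ± 0.06 (SE, n = 3 each, limma adjusted p = 0.674), with a 95% interval of -0.04 to 0.23. The other probe set (1367823_at) had 1250.2, 850.3 and 1047.4 in sham lungs, 1032.6, 912.8 and 1146.1 at 300 µg/l, and 1031.2, 966.2 and 837.4 at 600 µg/l. The groups overlapped on both, and the log2 change of the second at 600 µg/l was -0.13 ± 0.12 (SE, n = 3 each, limma adjusted p = 0.767), opposite in sign to the first.

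**Figure D4:**
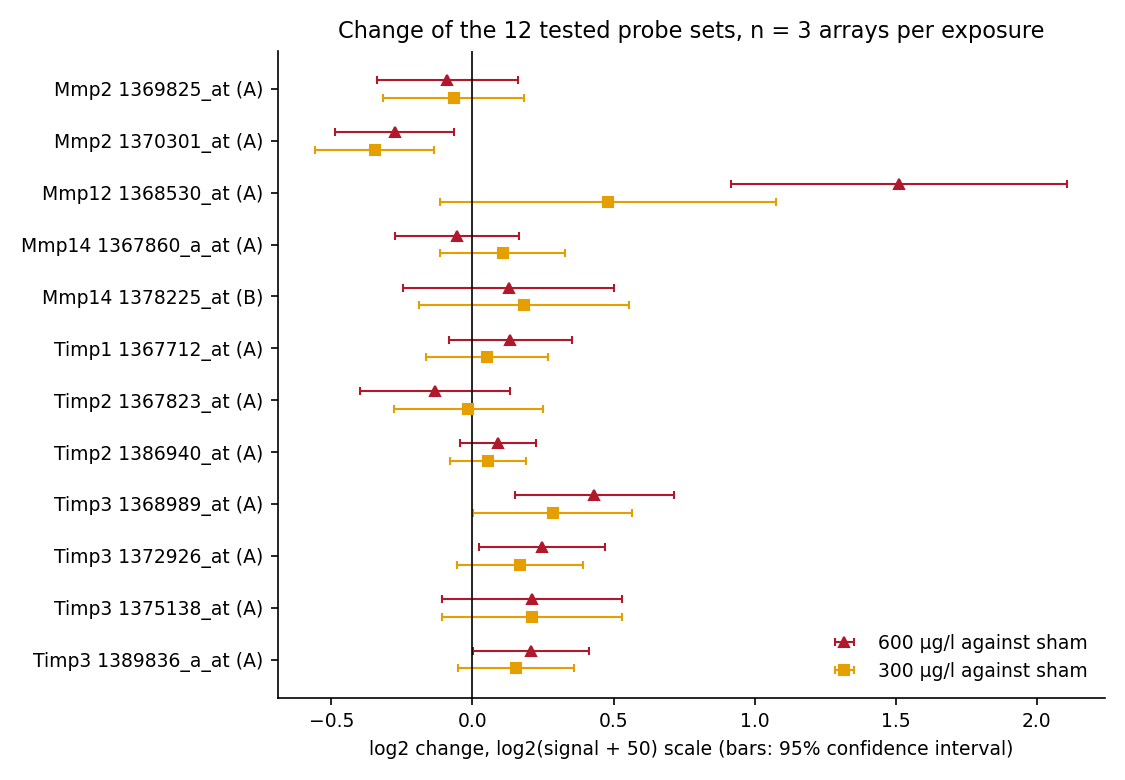
Log2 change of the 12 tested probe sets at 600 and at 300 µg/l against sham, on the log2(signal + 50) scale, with 95% confidence intervals from limma (n = 3 arrays per exposure). Only Mmp12 at 600 µg/l (1.51) passed the threshold after adjustment over all probe sets.

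Over the 12 probe sets, 5 had an unadjusted p under 0.05 at 600 µg/l (Mmp12, Mmp2 1370301_at and 3 of the 4 Timp3 probe sets), against 2031 of 19638 probe sets in all (10.3%). Signals at 600 µg/l lay wholly above sham for 1 of the 12, Mmp12, where 6.98% of all probe sets did so, and wholly below for 1, Mmp2 1370301_at, where 7.42% did. At 300 µg/l 2 of the 12 had an unadjusted p under 0.05, against 1085 of all probe sets. The log2 changes at 300 µg/l were 0.11 ± 0.10 and 0.18 ± 0.17 for the type A and type B probe sets of Mmp14, 0.05 ± 0.10 for Timp1, and 0.06 ± 0.06 and -0.01 ± 0.12 for the brighter and the dimmer Timp2 probe set (SE, n = 3 each), all with limma adjusted p = 0.997. Between 600 and 300 µg/l no member was called, where 0.0204% of all probe sets were, and 1 of the 12, Mmp12, had an unadjusted p under 0.05, against 992 in all.

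The other MMP and TIMP genes showed no call. Of 19 listed, 14 were on the arrays and 7 were tested, none of which rose or fell at 600 µg/l or at 300 µg/l, with a median log2 change at 600 µg/l of -0.11 against -0.0075 over all probe sets. The 2 with the smallest p were Mmp16, a membrane-anchored MMP, and Timp4, a further inhibitor. Mmp16 had 148.9, 247.0 and 152.4 at 600 µg/l and 216.1, 248.1 and 280.8 in sham lungs (log2 change -0.38 ± 0.16 SE, n = 3 each, limma adjusted p = 0.455). Timp4, measured on type B, had 702.6, 552.4 and 649.2 at 600 µg/l and 610.0, 503.4 and 496.6 in sham lungs (0.22 ± 0.12 SE, limma adjusted p = 0.573).

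Among 27 listed activators of MMPs, other matrix proteases and their inhibitors, 20 were tested, of which 3 rose and none fell at 600 µg/l. Their median log2 change was 0.08. Over all 19638 probe sets tested the median was -0.0075, with 84 called higher. Ctsk, cathepsin K, an elastin- and collagen-cutting lysosomal protease, had 327.7, 403.8 and 432.6 at 600 µg/l and 110.1, 46.7 and 95.1 in sham lungs (log2 change 1.73 ± 0.19 SE, n = 3 each, limma adjusted p = 0.00316). Plaur, the urokinase receptor, had 232.4, 212.8 and 224.2 at 600 µg/l and 123.5, 72.8 and 81.0 in sham lungs (0.96 ± 0.16 SE, limma adjusted p = 0.0321). Serpinb1a, an inhibitor of neutrophil elastase, had 2056.8, 2079.4 and 2390.1 at 600 µg/l and 1580.6, 1329.9 and 1742.6 in sham lungs (0.48 ± 0.08 SE, limma adjusted p = 0.0426). At 600 µg/l all 3 were above every sham array, as were 6.98% of all probe sets tested. Ctsk was called in all 20 alternatives that tested it, while Plaur was called in 11 of 20 and Serpinb1a in 8 of 21, and without the 20 h conditions Ctsk alone remained called. No sham array of Ctsk or Plaur reached the filter, against 3 of 3 at 600 µg/l, so both were tested through their smoke arrays, and without the filter Ctsk alone was called (limma adjusted p = 0.031, 0.11 for Plaur and 0.102 for Serpinb1a). Ctsk also stands on the macrophage list above.

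Of 19 listed MMP substrates and matrix assembly genes, 18 were tested, of which 2 fell and none rose at 600 µg/l. The estimate was below 0 for 16 of the 18, with a median log2 change of -0.23. Over all 19638 probe sets tested the median was -0.0075, with 17 called lower. Tnc, tenascin C, a matrix glycoprotein, had 128.1, 118.4 and 181.6 at 600 µg/l and 362.2, 344.3 and 249.9 in sham lungs (log2 change -0.94 ± 0.17 SE, n = 3 each, limma adjusted p = 0.0468). Loxl1, a crosslinking enzyme of elastin, had 413.1, 579.5 and 609.9 at 600 µg/l and 670.0, 820.2 and 816.7 in sham lungs (-0.50 ± 0.09 SE, limma adjusted p = 0.0471). At 600 µg/l both were below every sham array, as were 7.42% of all probe sets tested. Both calls stood near the threshold: Tnc was called in 9 of 20 alternatives and Loxl1 in 7 of 21. Without the 20 h conditions only Tnc was called. Tnc reached the filter in 3 of 3 sham arrays and in no smoke array, so it was tested through the group where it is high, and without the filter neither gene was called (limma adjusted p = 0.162 and 0.118). This list shares 5 tested genes with the fibroblast list (Col1a1, Col1a2, Col3a1, Dcn and Fn1).

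Of 12 listed inducers of MMP genes, 8 were tested, and none passed the test at 600 µg/l (median log2 change -0.06, over all probe sets -0.0075). Il1b, the cytokine interleukin-1 beta, had 558.4, 606.5 and 481.5 at 600 µg/l and 369.4, 256.0 and 342.4 in sham lungs, with no overlap (log2 change 0.69 ± 0.14 SE, n = 3 each, limma adjusted p = 0.0838). Tgfb1, transforming growth factor beta 1, had 591.6, 615.6 and 540.7 at 600 µg/l and 453.4, 519.8 and 516.4 in sham lungs, also with no overlap (0.21 ± 0.09 SE, limma adjusted p = 0.446). At 300 µg/l none of the tested genes of the activator, substrate and inducer lists was called.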

How the data were processed

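Total RNA of rat lung was hybridised as biotin-labelled cRNA to 2 array types, per the labels' protocols. The authors deposited linear signal intensity from MAS5, per the submitters' processing notes. The version and detection calls are not given in the sources used here. With 2% of values trimmed at each end, array means were 500.09 to 500.1, and this scaling was kept. Samples were grouped by title.

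Gene symbols came from the platform annotation, updated through Entrez identifiers. On type A 12789 of 15923 probe sets had 1 symbol, 312 several and 2822 were not listed, and on type B 7570 of 15333 had 1, 100 several and 7663 were not listed. After 57 control probe sets per type were dropped and 100 shared ones kept for A alone, 9901 were tested on A and 9737 on B.

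Each array type was fitted on log2(signal + 50) with limma 3.58.1 under R 4.3.3, using lmFit and trended eBayes and two-sided tests. The first model held exposure and time (4 residual degrees of freedom), the trend model concentration and time (5), and the third smoke, time and their interaction (3), which takes its spread from the differences between 600 and 300 µg/l at each time. The fit was checked on simulated data.

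Every probe set of the members is described. From each pathway list the text names up to 4 genes past the threshold at 600 µg/l, or otherwise the 2 with the smallest p. For Mmp12 and Timp1 it names the 3 genes of highest correlation. A gene in a list was represented by its brightest probe set. The members, lists and rule were chosen with earlier results of these data known, and the macrophage and neutrophil genes named, the neighbours of Mmp12 and the Timp3 correlations were chosen after values were seen. Alternatives were other scalings, pseudocounts, filters and models, and leaving out conditions.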

Additional observations from a re-analysis of the deposited data

How the results depend on the processing

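Of the 96 single results (12 probe sets in 8 comparisons), 1874 values under 25 alternatives kept their side of the threshold in 1856 cases. The other 18 were losses of the Mmp12 call, and no called value changed sign. Uncalled values changed sign in 67 cases. The number of member probe sets called at 600 µg/l against sham, 1, went to 0 without the filter, with the filter at the 60th percentile, without the intensity trend and without the 20 h conditions, with Mmp12 at limma adjusted p = 0.176, 0.0522, 0.086 and 0.14. Leaving out 1 condition at a time it was 0 to 1. For the trend over concentration the count went to 0 without the filter, without the intensity trend and without the 20 h conditions, and was 0 to 1 leaving out 1 condition at a time. The adjusted p of Mmp12 ran from 0.00565 to 0.204 at 600 µg/l (called in 11 of 21) and from 0.0185 to 0.171 for the trend (12 of 20). The alternatives for the gene lists were chosen after seeing the data: over them 5 to 8 macrophage genes, 1 to 4 activators and proteases and 0 to 1 inducers rose, and 0 to 2 substrates fell. Comparisons of smoke effects between times could not be fitted without a sham condition at the times compared. The labels give no replicate numbers; recovery time, which pairs the exposures, is a term of the model already, and without it Mmp12 was called as well (limma adjusted p = 0.028). The slope over concentration at each time was an alternative added after seeing the data. Signal far under the filter limits what can be said of Mmp9, and signal near it limits what can be said of Mmp11 and sham levels of Mmp12.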
